A study of Mus musculus with 30 samples.

Results

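The collagen chain genes are the genes that encode the alpha chains of collagen. They were taken as every protein-coding gene of the GENCODE mouse annotation whose symbol is Col, a number, the letter a and a number, whose counts averaged 10 or more per heart in either of 2 left ventricle RNA-seq studies. Of 44 genes with such a symbol, 28 met this minimum, among 12898 genes that did so in all. All 28 were tested for Ab42 and 25 for 3D6, since in the antibody study *Col7a1*, *Col12a1* and *Col28a1* lay below the minimum. The members comprise 8 fibrillar chains, 6 chains of the basement membrane network, 4 beaded filament chains, 4 FACIT chains (fibril-associated collagens with interrupted helices), 2 multiplexins, 1 hexagonal network chain, 1 transmembrane collagen and 2 others. Just inside the minimum were *Col7a1* with a mean of 13.2 and *Col28a1* with 14.6 counts per heart in the peptide study. Just outside were *Col13a1* with 9.57 and *Col8a2* with 7.57. The remaining 14 genes below the minimum included *Col2a1*, *Col9a1* and *Col10a1*, which are known from cartilage, with at most 1.29 counts per heart in either study.

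Collagen is built from alpha chains wound into a triple helix, and each type uses its own chains. Fibrillar collagens of types I, III and V, made in the heart mainly by fibroblasts, form the fibres that hold cardiomyocytes together and stiffen the ventricle when they accumulate. Type IV collagen forms the sheet-like network of basement membranes around cardiomyocytes and capillaries, and its genes lie in head-to-head pairs on opposite strands. Type VI collagen forms beaded filaments that link the basement membrane to the fibres, and FACIT collagens coat fibril surfaces.

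The hearts came from male C57BL6J mice in 2 separate experiments, 30 hearts in all. In the peptide study, 7 mice were given Ab42 (Aβ42 in the plots), the amyloid beta peptide, and 7 were given ScrAb42, its scrambled control peptide. Both were given by daily intraperitoneal injection for 4 weeks. The deposited description gives 12 weeks as the age at the start, and the study's methods a range of ages that ends at 12 weeks. The series' design text gives the dose as 1 mg per day and the study's methods as 1 µg per day, and this was not resolved. In the antibody study, 8 mice were given 3D6, an antibody that neutralises amyloid beta, and 8 were given a control antibody. The deposited description gives 12 weeks as their age at the start. By the study's methods, these mice were first examined at 12 weeks, and the diet and then the antibodies began 1 week later. All 16 mice of the antibody study were on a high-fat diet by the study's methods, whereas the series' design text says that they were also given Ab42. Whether the groups differed in collagen chain transcripts is the question asked here of each pair of groups, Ab42 versus ScrAb42 and 3D6 versus Control antibody.

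Total counts per heart ranged from 4478991 to 6015767 in the peptide study and from 6397189 to 8310480 in the antibody study. The ventricular myosin light chain *Myl2* was detected in every heart. It ran from 804 to 7379 CPM (TMM-normalised counts scaled to library size, median 6014) in the peptide study and from 2613 to 7617 CPM (median 4739) in the antibody study. The lowest value, 804 CPM, was that of Ab42 replicate 5, and the next lowest of the peptide study was 3684 CPM. Several hearts stood apart. The summed CPM of 5 atrial cardiomyocyte markers (*Sln*, *Myl7*, *Myl4*, *Bmp10* and *Mybphl*) ran from 12.4 to 8417 with Ab42 (median 1158). With ScrAb42 it ran from 3.82 to 3665 (median 10.5). Ab42 replicates 3, 5 and 6, at 4707, 8417 and 4357 CPM, exceeded every ScrAb42 heart. The highest values of the groups were those of Ab42 replicate 5 and ScrAb42 replicate 6. These 2 hearts also had the highest summed level of 10 fibroblast markers in their groups, 4940 and 6599 CPM against group medians of 2630 and 2429 CPM, and the lowest mitochondrial share of counts in the study, 12.9% and 13.8%. In the antibody study, the first principal component was most extreme for Control antibody replicate 5, with a mitochondrial share of 25.9%, and Control antibody replicate 8, with the fewest genes detected (16040). In bulk tissue, fewer cells of a type and less RNA per cell cannot be told apart.

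The promoters of type IV genes are shown because these genes lie head to head, and the levels of such pairs are set beside each other in the results. In the GENCODE annotation of GRCm38, *Col4a1* (chromosome 8, 11198423 to 11312826, minus strand) and *Col4a2* (chromosome 8, 11312805 to 11449287, plus strand) overlap by 22 bases at their start sites. *Col4a4* and *Col4a3* on chromosome 1 have 71 bases between their start sites, and *Col4a6* and *Col4a5* on chromosome X have 1308 bases between theirs. RefSeq promoter windows of 300 bases (GRCm38.p6) were found for 23 of the 28 members, and there was no entry for *Col1a1*, *Col4a3*, *Col5a2*, *Col12a1* and *Col14a1*. Capitals mark CCAAT or its reverse complement ATTGG, and GGGCGG or its reverse complement CCGCCC. The windows of *Col4a1* (chr8:11312777-11313076, minus strand), *Col4a2* (chr8:11312555-11312854, plus strand), *Col4a5* (chrX:141475169-141475468, plus strand) and *Col4a6* (chrX:141474027-141474326, minus strand) read 5′ to 3′:
Col4a1: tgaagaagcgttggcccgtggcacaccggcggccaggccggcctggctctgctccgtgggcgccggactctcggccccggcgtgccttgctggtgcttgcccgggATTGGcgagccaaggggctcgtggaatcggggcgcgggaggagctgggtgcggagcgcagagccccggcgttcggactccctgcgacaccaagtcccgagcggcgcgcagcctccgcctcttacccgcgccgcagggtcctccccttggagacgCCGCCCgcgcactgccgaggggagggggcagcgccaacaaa
Col4a2: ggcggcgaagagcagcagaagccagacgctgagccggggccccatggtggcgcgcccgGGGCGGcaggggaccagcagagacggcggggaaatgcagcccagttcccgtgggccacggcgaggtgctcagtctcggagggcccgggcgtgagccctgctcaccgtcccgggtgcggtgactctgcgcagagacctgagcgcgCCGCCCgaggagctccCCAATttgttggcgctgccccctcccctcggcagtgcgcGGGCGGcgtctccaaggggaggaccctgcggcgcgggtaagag
Col4a5: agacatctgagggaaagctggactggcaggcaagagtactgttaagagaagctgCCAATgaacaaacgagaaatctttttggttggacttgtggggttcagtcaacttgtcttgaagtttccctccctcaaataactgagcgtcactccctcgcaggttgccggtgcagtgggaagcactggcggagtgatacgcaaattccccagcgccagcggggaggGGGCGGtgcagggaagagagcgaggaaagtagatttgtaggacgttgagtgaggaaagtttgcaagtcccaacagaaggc
Col4a6: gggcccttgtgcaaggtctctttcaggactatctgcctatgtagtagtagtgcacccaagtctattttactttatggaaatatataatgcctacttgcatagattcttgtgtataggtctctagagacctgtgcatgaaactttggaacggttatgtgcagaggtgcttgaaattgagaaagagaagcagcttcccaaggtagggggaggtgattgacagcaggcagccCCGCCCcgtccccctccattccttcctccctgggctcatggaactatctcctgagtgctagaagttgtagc

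The windows of *Col4a1* and *Col4a2* share 78 bases, from 11312777 to 11312854, read on opposite strands. CCAAT on either strand occurred in the windows of *Col4a1*, *Col4a2* and *Col4a5* and in windows of 8 of the 23 members, against 37.4% of all 32851 windows in the table. GGGCGG on either strand occurred in all 4 windows printed and in windows of 16 of the 23 members, against 35.7% of all windows. The match of *Col4a1* lies in the 78 bases shared with *Col4a2* and counts for both genes. Members were counted by gene with a match in any window, and *Col6a2* and *Col18a1* have more than a single window. The shares of all windows were counted by window. TATAAA on either strand, a letter string of the TATA box, was in none of the 4 printed windows, in those of *Col3a1* and *Col11a2* among the members, and in 13.6% of all windows. Letter matches are a description and do not show binding.

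*Col4a1* and *Col4a2* were the most abundant collagen transcripts in these ventricles when levels were expressed per length, while the type IV chains *Col4a3* and *Col4a4* were among the rarer members, at 0.752 and 1.36 CPM per kilobase in the peptide study. In the peptide study, *Col4a1* reached 54.3 ± 7.74 and *Col4a2* 50.7 ± 5.39 CPM per kilobase (SD, n = 14), followed by *Col1a2* at 25.7 ± 15.0, *Col3a1* at 23.5 ± 13.6, *Col6a1* at 18.6 ± 5.13 and *Col6a2* at 15.2 ± 5.82. *Col4a1* and *Col4a2* lay within their spread of each other, as did the 4 chains that follow. In the antibody study, *Col4a1* reached 63.7 ± 13.8 and *Col4a2* 57.0 ± 10.8 CPM per kilobase (SD, n = 16), followed by *Col3a1* at 23.5 ± 5.35, *Col6a2* at 18.2 ± 3.04, *Col15a1* at 17.8 ± 3.48 and *Col6a1* at 17.5 ± 1.83. Lengths were weighted by transcript use in the antibody study. With the union of annotated exons as the length, *Col4a2* came first in both studies, and *Col1a2* and *Col6a2* moved from places 3 and 6 to places 7 and 9 in the peptide study. The least abundant member was *Col7a1*, which encodes the anchoring fibril collagen of skin, at 0.296 ± 0.107 CPM per kilobase (SD, n = 14) in the peptide study. All 28 members together made up 0.145% of counts at the median with Ab42, 0.153% with ScrAb42, 0.150% with 3D6 and 0.156% with Control antibody.

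**Figure D1:**
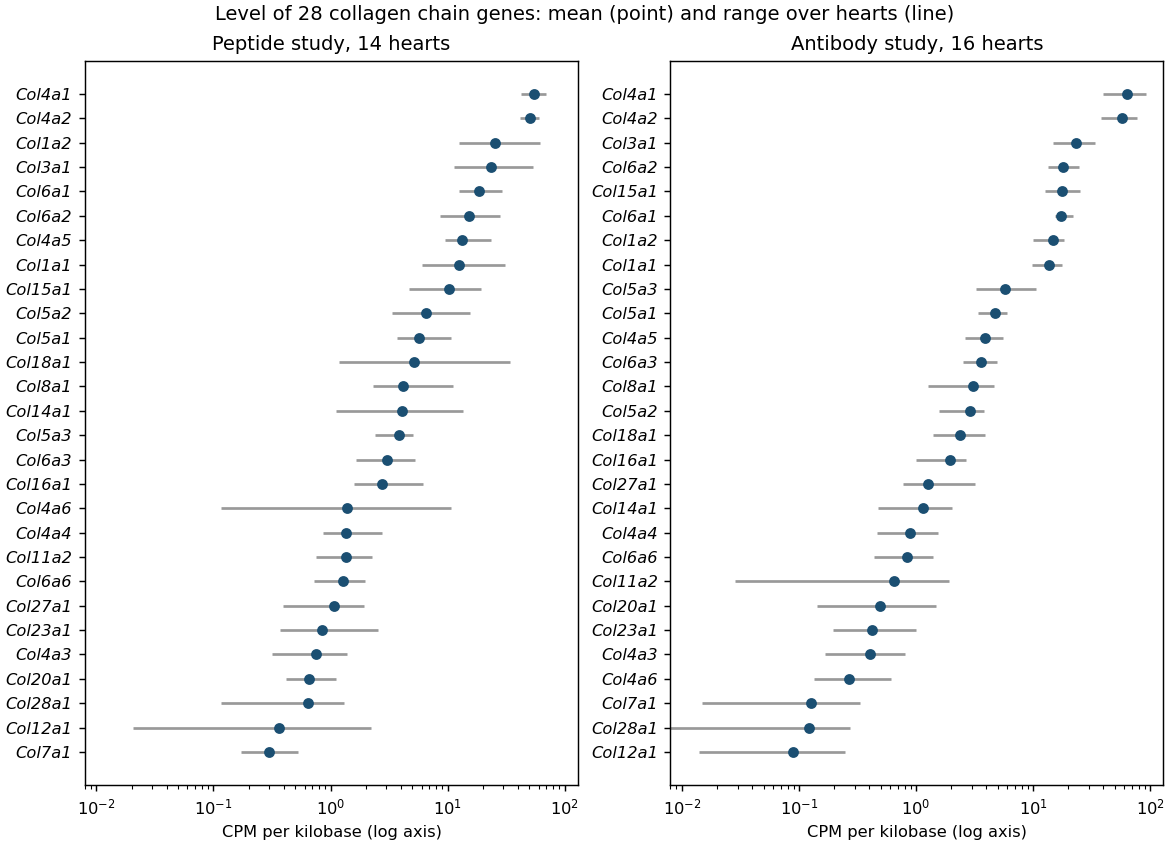
Mean level (point) and range over hearts (line) of the 28 collagen chain genes in CPM per kilobase on a log axis, ordered within each study. The type IV chains *Col4a1* and *Col4a2* lie highest in both studies, at 54.3 and 50.7 CPM per kilobase in the peptide study. The line of *Col28a1* in the antibody study runs to the edge of the axis because 1 heart had 0 counts.

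The abundant type I and III chains varied more from heart to heart than *Col4a1* and *Col4a2* in the peptide study. Over its 14 hearts, the coefficient of variation of the CPM was 62.4% for *Col1a1*, 58.5% for *Col1a2* and 58.1% for *Col3a1*, but 14.3% for *Col4a1* and 10.6% for *Col4a2*. The highest *Col1a1* level of any heart was 5.12 times the lowest, and the highest *Col4a1* level was 1.64 times the lowest. Over the 16 hearts of the antibody study the variation was 18.4% for *Col1a1*, 16.6% for *Col1a2*, 22.8% for *Col3a1*, 21.6% for *Col4a1* and 18.9% for *Col4a2*. Without Ab42 replicate 5 and ScrAb42 replicate 6, left out after the data were seen, the variation in the peptide study was 30.0% for *Col1a1*, 26.3% for *Col1a2*, 32.6% for *Col3a1*, 14.3% for *Col4a1* and 11.1% for *Col4a2*. The differences in variation were not tested.

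No collagen chain gene passed an adjusted p of 0.05 in either comparison in the model without covariates (quasi-likelihood test of edgeR, Benjamini-Hochberg adjustment). Among all genes, the calls were 0 of 11985 (0%) for Ab42 and 0 of 12274 (0%) for 3D6, while 780 (6.51%) and 447 (3.64%) had an unadjusted p under 0.05. DESeq2 called 12 genes for Ab42 and 0 for 3D6, and no collagen chain gene was among them. Of the 28 members tested in the peptide study, 18 had a log2 fold change below 0, against 49.5% of all genes, and the median was -0.13 against 0.0015 for all genes. In the antibody study 21 of 25 lay below 0, against 52.6% of all genes, with a median of -0.13 against -0.0098. Without Control antibody replicate 1 these were 18 of 25 and -0.065, and with the fibroblast marker score in the model 16 of 25 and -0.072. The members are not independent of each other, so these counts are a description. An unadjusted p under 0.05 was found for 3 of 28 members in the peptide study, all higher with Ab42 (3.59% of all genes were higher and 2.92% lower at this level), and for 0 of 25 with 3D6 (1.32% of all genes higher and 2.32% lower). In the peptide study the count below 0 was 11 and the median 0.15 without ScrAb42 replicate 6, 23 and -0.31 without Ab42 replicate 5, and 27 and -0.51 once a score of the atrial markers entered the model.

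**Figure D2:**
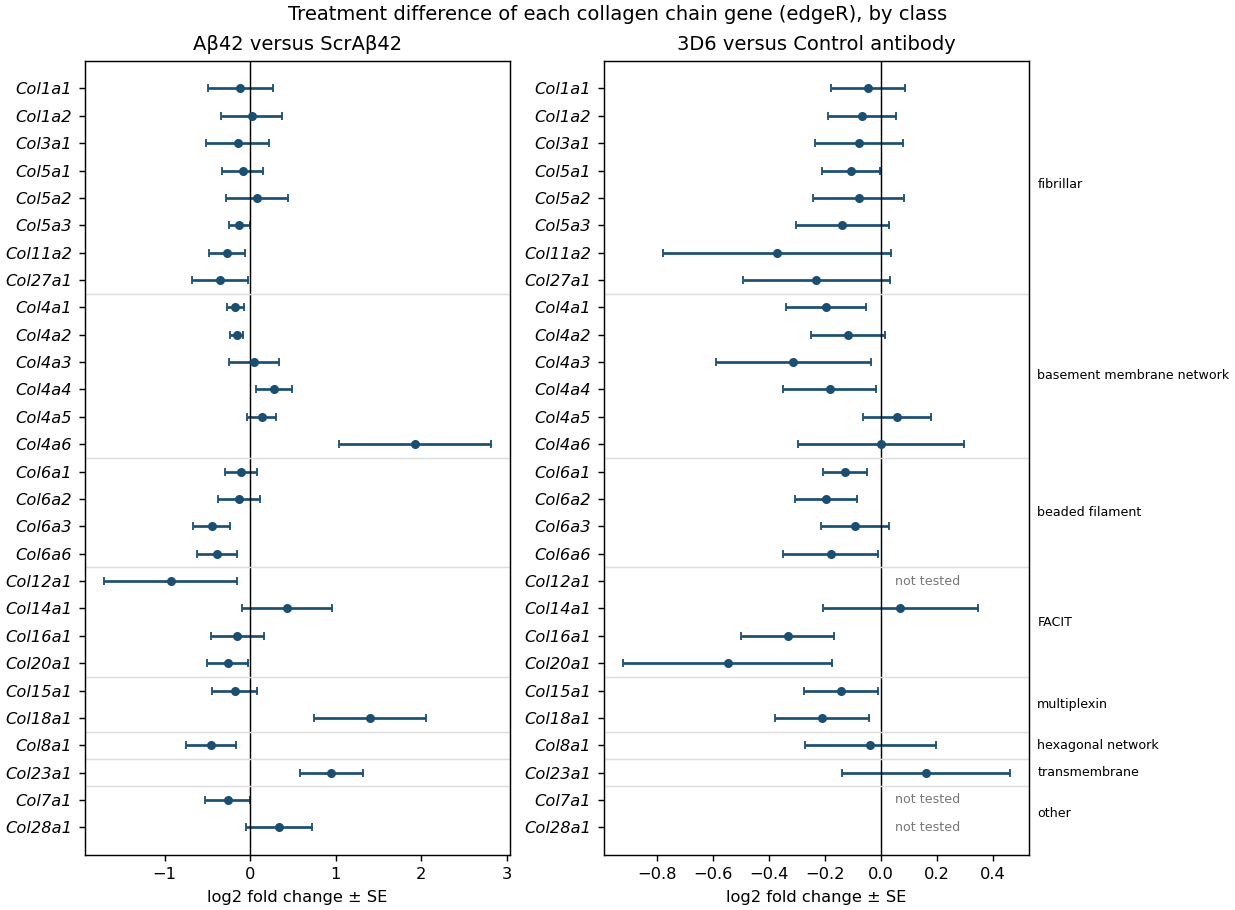
Log2 fold change with its standard error for each collagen chain gene, grouped by class, in Ab42 versus ScrAb42 and in 3D6 versus Control antibody (axes differ in range). Most points lie below 0 in both panels, while *Col4a6*, *Col18a1* and *Col23a1* lie highest with Ab42, at 1.93, 1.40 and 0.95.

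The fibrillar chains did not differ beyond the spread between hearts. *Col1a1*, which encodes the main chain of type I collagen, ranged from 35.6 to 171 CPM with a median of 51.7 in the 7 Ab42 hearts. In the 7 ScrAb42 hearts *Col1a1* ranged from 37.8 to 182 CPM with a median of 66.1. Each group had 1 heart far above the others, Ab42 replicate 5 and ScrAb42 replicate 6, and the groups overlapped. The log2 fold change of *Col1a1* was -0.11 (SE 0.38, adjusted p = 0.970). *Col1a2*, the other type I chain, ranged from 79.2 to 329.7 CPM with a median of 97.9 with Ab42 and from 66.0 to 298 CPM with a median of 119 with ScrAb42. Its log2 fold change was 0.019 (SE 0.36, adjusted p = 0.995). *Col3a1*, the type III chain that forms thin reticular fibres, ranged from 61.4 to 284 CPM with a median of 87.1 with Ab42 and from 64.5 to 290.4 CPM with a median of 113 with ScrAb42. The log2 fold change of *Col3a1* was -0.15 (SE 0.37, adjusted p = 0.962). Medians of all 3 genes were lower with Ab42, and the ranges covered each other almost entirely. Leaving out each heart in turn gave -0.50 to 0.26 for *Col1a1*, -0.37 to 0.34 for *Col1a2* and -0.52 to 0.16 for *Col3a1*. Once a score of the atrial markers entered the model, the log2 fold changes were -0.81 for *Col1a1*, -0.59 for *Col1a2* and -0.82 for *Col3a1*, with unadjusted p from 0.00665 to 0.0372 and adjusted p from 0.521 to 0.630.

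In the antibody study the same chains varied less. *Col1a1* ranged from 58.5 to 104 CPM with a median of 86.7 in the 8 hearts given 3D6 and from 61.7 to 105 CPM with a median of 84.7 in the 8 given Control antibody. The log2 fold change of *Col1a1* was -0.044 (SE 0.13, adjusted p = 0.964). *Col1a2* ranged from 53.4 to 94.4 CPM with a median of 78.0 with 3D6 and from 67.0 to 98.0 CPM with a median of 79.6 with Control antibody. For *Col3a1* the range was 81.0 to 167 CPM (median 126) with 3D6 and 90.5 to 183 CPM (median 122) with Control antibody. Log2 fold changes were -0.066 for *Col1a2* (SE 0.12, adjusted p = 0.948) and -0.077 for *Col3a1* (SE 0.16, adjusted p = 0.950). The ranges of the groups overlapped, and for each of the 3 genes the lowest heart was given 3D6 and the highest Control antibody. With the fibroblast marker score as a covariate, the 3 values turned to 0.046, 0.042 and 0.054 for *Col1a1*, *Col1a2* and *Col3a1*. The fibroblast markers themselves were lower with 3D6 in 9 of 10 genes (median log2 fold change -0.13), and their part in the collagen values was not tested.

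The minor fibrillar chains gave the same kind of result. Of the 8 fibrillar members, 6 lay below 0 with Ab42, with log2 fold changes from -0.35 to 0.076, and 8 lay below 0 with 3D6, from -0.37 to -0.044. *Col5a1* and *Col5a2* encode type V chains, which start fibrils and set their width. Their log2 fold changes with Ab42 were -0.089 (SE 0.25) and 0.076 (SE 0.36). *Col11a2* and *Col27a1* were lowly expressed, at 3.78 ± 3.05 and 8.75 ± 5.33 CPM (SD, n = 8) with Control antibody. Summed over the fibrillar members, the level ran from 285 to 1008 CPM with Ab42 (median 349.7) and from 259.5 to 1015 CPM with ScrAb42 (median 404). With 3D6 the sum ran from 278 to 467 CPM (median 395) and with Control antibody from 337 to 504 CPM (median 387).

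**Figure D3:**
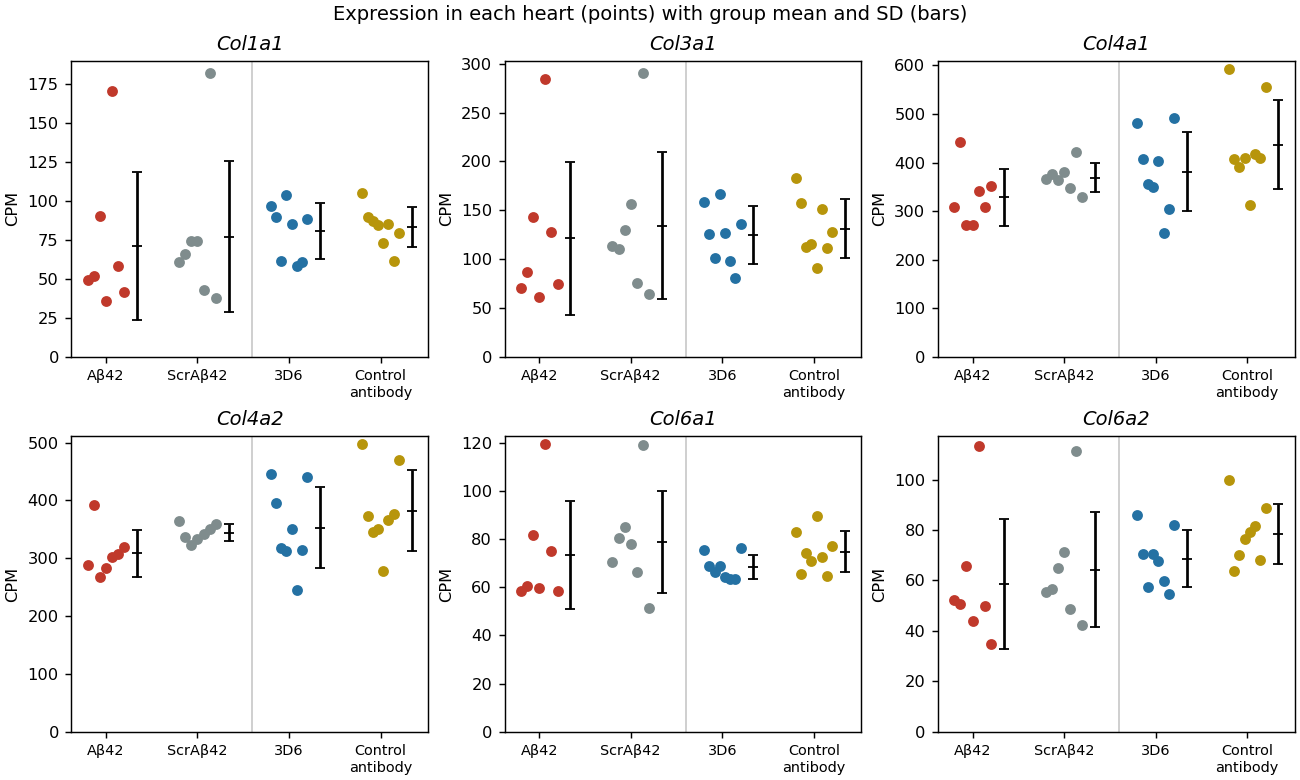
CPM of 6 abundant collagen chain genes in each heart (points), with the group mean and SD (bars), for the peptide study (left of the grey line) and the antibody study. The points of the groups overlap for every gene, and *Col1a1* reaches 171 and 182 CPM in 1 heart of each peptide group.

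The major type IV chains were lower in most treated hearts of both studies, without passing the test. *Col4a1* ranged from 270.3 to 443 CPM with a median of 309 with Ab42 and from 328 to 421 CPM with a median of 367 with ScrAb42. Ab42 replicate 2 was higher than every ScrAb42 heart, and the other 6 Ab42 hearts were below the ScrAb42 median. The log2 fold change of *Col4a1* was -0.17 (SE 0.10, unadjusted p = 0.121, adjusted p = 0.807). *Col4a2* ranged from 267 to 391.9 CPM with a median of 302 with Ab42 and from 323 to 365 CPM with a median of 342 with ScrAb42. Here too Ab42 replicate 2 lay above every ScrAb42 heart, and the other 6 lay below the lowest of them. The log2 fold change of *Col4a2* was -0.16 (SE 0.081, unadjusted p = 0.0668, adjusted p = 0.772). Leaving out each heart in turn gave -0.23 to -0.13 for *Col4a2* and -0.26 to -0.13 for *Col4a1*.

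With 3D6, *Col4a1* ranged from 255 to 491 CPM with a median of 379, and with Control antibody from 313 to 592 CPM with a median of 409. *Col4a2* ranged from 244 to 445 CPM with a median of 334 with 3D6 and from 278 to 498 CPM with a median of 369 with Control antibody. For *Col4a1*, 6 of 8 hearts given 3D6 were below the Control antibody median, and the ranges overlapped. Log2 fold changes were -0.20 for *Col4a1* (SE 0.14, adjusted p = 0.946) and -0.12 for *Col4a2* (SE 0.13, adjusted p = 0.946). Leaving out each heart in turn gave -0.25 to -0.12 for *Col4a1* and -0.17 to -0.051 for *Col4a2*, with the smallest values without Control antibody replicate 1. Endothelial cells are a source of type IV collagen, and 7 of 7 endothelial markers were lower with 3D6 (median log2 fold change -0.19, summed level 659 to 798 CPM with 3D6 and 684 to 1040 CPM with Control antibody). In the peptide study 4 of 7 were lower with Ab42 (median -0.099, 769.7 to 968 CPM with Ab42 and 762 to 964 CPM with ScrAb42). Their part in the type IV values was not tested.

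The other type IV chains form rarer networks, known from kidney glomeruli and epithelia. *Col4a5*, on the X chromosome, ranged from 66.3 to 148 CPM (median 76.2) with Ab42 and from 58.9 to 107 CPM (median 76.0) with ScrAb42. With the antibodies, it ranged from 16.4 to 34.4 CPM (median 23.6) with 3D6 and from 21.8 to 26.8 CPM (median 23.3) with Control antibody. Its log2 fold changes were 0.14 (SE 0.17) and 0.059 (SE 0.12), and the 3D6 hearts were spread more widely than the controls on both sides. The Ab42 value was -0.046 without Ab42 replicate 5 and -0.15 once the atrial score entered the model. The 3D6 value was -0.020 without 3D6 replicate 1. Levels are not compared across studies, since the tables were quantified and normalised separately. *Col4a3* and *Col4a4* were at 6.44 ± 2.36 and 15.1 ± 6.17 CPM (SD, n = 7) with Ab42 and at 6.31 ± 3.02 and 12.5 ± 2.15 CPM (SD, n = 7) with ScrAb42. Neither passed the test.

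*Col4a6*, *Col18a1* and *Col23a1* had the highest log2 fold changes of the members with Ab42. All 3 peaked in Ab42 replicate 5, the heart with the most atrial marker RNA, while among ScrAb42 hearts this held for *Col4a6* and *Col18a1* (replicate 6) and not for *Col23a1* (replicate 3). This was not particular to these genes. Among Ab42 hearts, replicate 5 was also highest for many other members, such as *Col1a1* (171 CPM), *Col3a1* (284 CPM), *Col4a5* (148 CPM) and *Col15a1* (88.2 CPM). *Col4a1*, *Col4a2* and *Col5a3* were among those highest in Ab42 replicate 2 instead. *Col4a6* ranged from 0.828 to 70.5 CPM with a median of 3.75 with Ab42 and from 0.775 to 16.1 CPM with a median of 2.15 with ScrAb42. Its log2 fold change was 1.93 (SE 0.88, unadjusted p = 0.0449, adjusted p = 0.752). The highest value of each group came from Ab42 replicate 5 and ScrAb42 replicate 6. The log2 fold change was 0.45 without Ab42 replicate 5 and 3.07 without ScrAb42 replicate 6, and it was -0.13 once the atrial score entered the model. With the fibroblast marker score in the model instead, it was 1.86 and passed the threshold (unadjusted p = 0.00014, adjusted p = 0.0349), as 1 of 76 genes called in that fit. *Col18a1* encodes the basement membrane collagen whose end fragment is endostatin. It ranged from 9.31 to 174 CPM with a median of 11.3 with Ab42 and from 6.0 to 28.5 CPM with a median of 14.4 with ScrAb42. Its log2 fold change was 1.40 (SE 0.66, unadjusted p = 0.0494, adjusted p = 0.762), and it was 0.074 without Ab42 replicate 5 and -0.18 with the atrial covariate. The median of the Ab42 group was below that of the ScrAb42 group.

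*Col23a1*, which encodes a transmembrane collagen, had the smallest p of the members in the peptide study. It ranged from 2.07 to 14.3 CPM with a median of 4.496 with Ab42 and from 2.13 to 4.37 CPM with a median of 3.29 with ScrAb42. Of the 7 Ab42 hearts, 5 exceeded the ScrAb42 median and 4 exceeded every ScrAb42 heart. *Col23a1* had a log2 fold change of 0.95 (SE 0.37, unadjusted p = 0.0198, adjusted p = 0.702). It was 0.58 without Ab42 replicate 5 and 0.34 with the atrial covariate. Under 3D6 and its control, *Col23a1* ranged from 1.47 to 3.19 CPM (median 2.65) with 3D6 and from 1.09 to 5.53 CPM (median 1.66) with Control antibody. There 7 of 8 hearts given 3D6 exceeded the control median, and the log2 fold change was 0.16 (SE 0.30, adjusted p = 0.948). Leaving out each heart in turn gave 0.059 to 0.52. The highest *Col4a6* (4.04 CPM), *Col18a1* (19.7 CPM) and *Col23a1* (5.53 CPM) of the antibody study were all in Control antibody replicate 2, the heart with the highest summed atrial markers (2776 CPM) of that study. Atrial markers were higher with Ab42 in 5 of 5 genes (median log2 fold change 2.31) and lower with 3D6 in 4 of 4 tested (median -0.97), none past the adjusted threshold without covariates and none at 0 in a whole group. With the fibroblast covariate, *Sln* (log2 fold change 5.25), *Myl4* (4.90) and *Mybphl* (4.28) were called for Ab42. For 3D6 the median summed level ran the other way from the fold changes, 98.5 CPM with 3D6 and 2.88 CPM with Control antibody, and replicate 2 held the highest Control antibody value. Their part in these results was not tested.

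**Figure D4:**
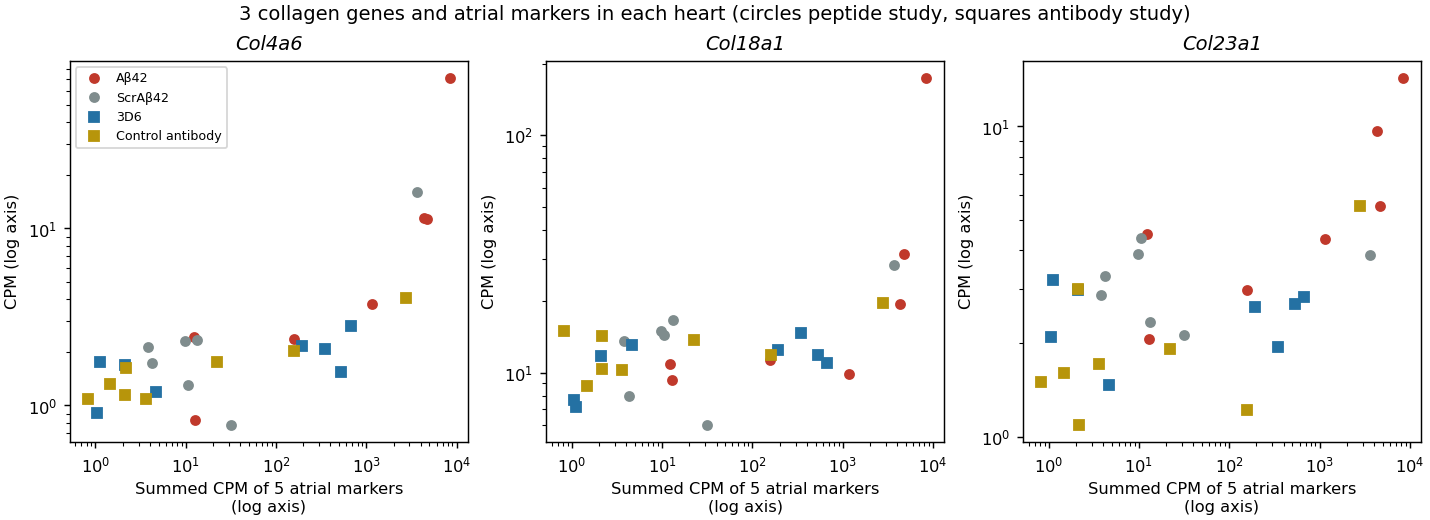
CPM of *Col4a6*, *Col18a1* and *Col23a1* against the summed CPM of 5 atrial markers in each heart, both on log axes, with circles for the peptide study and squares for the antibody study. The Ab42 heart with the highest atrial sum, 8417 CPM, has the highest level of each gene, 70.5, 174 and 14.3 CPM. Many members not plotted, such as *Col1a1* and *Col3a1*, are also highest in this heart among the Ab42 hearts.

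All 4 beaded filament chains lay below 0 in both studies, and none passed the test. *Col6a3*, the chain that carries the endotrophin fragment, ranged from 14.6 to 38.1 CPM (median 20.7) with Ab42 and from 21.1 to 46.7 CPM (median 27.1) with ScrAb42. With Ab42, 6 of 7 hearts were below the ScrAb42 median, and the log2 fold change was -0.45 (SE 0.22, unadjusted p = 0.0566, adjusted p = 0.763). It ran from -0.63 to -0.32 on leaving out each heart and from -0.83 to -0.40 under the other settings. *Col6a1* and *Col6a2*, the partner chains of *Col6a3* in the same molecule, differed less, with log2 fold changes of -0.10 (SE 0.19) and -0.13 (SE 0.25). *Col6a1* ranged from 58.5 to 119 CPM (median 60.4) with Ab42 and from 51.3 to 119 CPM (median 78.2) with ScrAb42. *Col6a2* ranged from 34.9 to 113 CPM (median 50.7) with Ab42 and from 42.2 to 111 CPM (median 56.6) with ScrAb42. Without ScrAb42 replicate 6, both turned to values above 0, 0.028 and 0.059. Among the 16 antibody-treated hearts, *Col6a1* ranged from 63.3 to 76.1 CPM (median 67.6) with 3D6 and from 64.9 to 89.8 CPM (median 73.4) with Control antibody. *Col6a2* there ranged from 54.5 to 85.8 CPM (median 69.1) with 3D6 and from 63.6 to 99.9 CPM (median 78.0) with Control antibody. For each of *Col6a1* and *Col6a2*, 6 of 8 hearts given 3D6 were below the control median. Log2 fold changes were -0.13 (SE 0.079, unadjusted p = 0.123) and -0.20 (SE 0.11, unadjusted p = 0.0940), with an adjusted p of 0.946 for both. *Col6a3* had a log2 fold change of -0.092 (SE 0.12), which was -0.016 without Control antibody replicate 1, and *Col6a6* one of -0.18 (SE 0.17).

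Among the FACIT chains, *Col16a1* had the smallest p of the members in the antibody study. It ranged from 4.47 to 10.5 CPM with a median of 7.73 with 3D6 and from 6.70 to 11.8 CPM with a median of 9.56 with Control antibody. Its log2 fold change was -0.33 (SE 0.17, unadjusted p = 0.0609, adjusted p = 0.946), and 6 of 8 hearts given 3D6 were below the control median. The value ran from -0.41 to -0.25 on leaving out each heart and from -0.66 to -0.22 under the other settings. In the peptide study *Col16a1* ranged from 7.11 to 18.8 CPM (median 11.2) with Ab42 and from 7.36 to 27.6 CPM (median 9.90) with ScrAb42. The log2 fold change there was -0.15 (SE 0.31), and 0.16 without ScrAb42 replicate 6. *Col14a1*, which encodes undulin, ranged from 7.24 to 66.8 CPM (median 12.8) with Ab42 and from 5.42 to 44.9 CPM (median 11.7) with ScrAb42. Its log2 fold change was 0.43 (SE 0.53), and -0.13 without Ab42 replicate 5. With 3D6 it ranged from 2.56 to 9.89 CPM (median 4.73), and with Control antibody from 2.34 to 8.93 CPM (median 5.12), a log2 fold change of 0.070 (SE 0.28). *Col12a1* was tested in the peptide study alone, where ScrAb42 replicate 6 had 22.6 CPM against a group median of 1.26 CPM.

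*Col15a1*, the multiplexin of muscle and capillary basement membranes, was at 44.1 ± 22.1 CPM with Ab42 and 50.1 ± 14.0 CPM with ScrAb42 (SD, n = 7 each). In the 3D6 experiment, it was at 77.2 ± 17.2 CPM with 3D6 and 85.2 ± 14.6 CPM with Control antibody (SD, n = 8 each). *Col18a1*, the other multiplexin, ranged there from 7.19 to 14.6 CPM (median 11.8) with 3D6 and from 8.77 to 19.7 CPM (median 12.8) with Control antibody. Its log2 fold change was -0.21 (SE 0.17). This ran from -0.27 to -0.093 on leaving out each heart and from -0.28 to -0.077 under the other settings. *Col8a1*, the hexagonal network chain of vessel walls, was at 18.04 ± 4.89 CPM with Ab42 and 24.6 ± 15.0 CPM with ScrAb42 (SD, n = 7 each). Its log2 fold change was -0.46 (SE 0.29), and ScrAb42 replicate 6 held its highest value, 56.3 CPM. None of these passed the adjusted threshold.

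The balance of chains within a heart was compared as a log2 ratio of CPM with a prior count of 2, by exact two-sided permutation tests over hearts adjusted over 6 tests. For *Col1a1*/*Col1a2*, the ratio was -0.96 ± 0.15 with Ab42 and -0.85 ± 0.12 with ScrAb42 (SD, n = 7 each). The difference of -0.11 had an exact p of 0.144 (adjusted p = 0.432), and 1 of 7 Ab42 hearts was above the ScrAb42 median. With 3D6 the same ratio was 0.078 ± 0.13, and with Control antibody 0.055 ± 0.17 (SD, n = 8 each, exact p = 0.772). *Col1a1*/*Col3a1* was -0.77 ± 0.19 with Ab42 and -0.82 ± 0.13 with ScrAb42 (exact p = 0.593), and -0.62 ± 0.12 with 3D6 and -0.64 ± 0.23 with Control antibody (exact p = 0.820). *Col4a1*/*Col4a2* was 0.079 ± 0.093 with Ab42 and 0.097 ± 0.14 with ScrAb42 (exact p = 0.760). With 3D6 it was 0.11 ± 0.083 and with Control antibody 0.19 ± 0.048. This difference of -0.077 had an exact p of 0.0345 before and 0.207 after adjustment, and 7 of 8 hearts given 3D6 were below the control median.

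Fibrillar chain transcripts varied together from heart to heart within groups. Deviations of log2 CPM from the group mean were correlated over the 14 hearts of the peptide study and the 16 of the antibody study, with permutation within groups (100000 resamples, smallest possible p 1e-05) and adjustment over 16 tests. *Col1a1* and *Col1a2* gave r = 0.98 (permutation p = 1e-05, adjusted 5.3e-05; rho = 0.96, p = 2e-05) in the peptide study, and r = 0.95 without Ab42 replicate 5 and ScrAb42 replicate 6. For the antibody comparison, they gave r = 0.85 (permutation p = 0.00035, adjusted 0.00080; rho = 0.84, p = 0.00039). *Col1a1* and *Col3a1* gave r = 0.98 (permutation p = 1e-05; rho = 0.97, p = 1e-05) and r = 0.85 (permutation p = 0.00017; rho = 0.89, p = 4e-05). *Col5a1* and *Col5a2* gave r = 0.97 (permutation p = 2e-05; rho = 0.93, p = 8e-05) and r = 0.72 (permutation p = 0.00586; rho = 0.80, p = 0.00086). Leaving out the 2 hearts farthest from the median, the 3 fibrillar pairs ranged from 0.88 to 0.95 in the peptide study and from 0.60 to 0.88 in the antibody study.

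*Col4a1* and *Col4a2* gave r = 0.98 (permutation p = 1e-05; rho = 0.95, p = 1e-05) over the antibody study, and 0.96 without its 2 farthest hearts. In the peptide study they gave r = 0.80 (permutation p = 0.00909, adjusted 0.0121, and rho = 0.54, p = 0.0687). Without Ab42 replicates 2 and 4, the farthest from the median, r was 0.48 and no longer passed (permutation p = 0.138, adjusted 0.158). It was 0.91 when CPM were scaled by total counts. *Col6a1* and *Col6a2* gave r = 0.93 (permutation p = 6e-05; rho = 0.77, p = 0.00262) and r = 0.76 (permutation p = 0.00082; rho = 0.82, p = 0.00032) in the peptide and antibody studies. *Col6a1* and *Col6a3* gave r = 0.84 (permutation p = 0.00043; rho = 0.66, p = 0.0147) and r = 0.51 (permutation p = 0.0420, adjusted 0.0480; rho = 0.48, p = 0.0695). Without the 2 farthest hearts, the type VI pairs gave r from 0.63 to 0.78 in the peptide study and from 0.70 to 0.87 in the antibody study. Both multiplexins, *Col15a1* and *Col18a1*, gave r = 0.82 (permutation p = 0.00109; rho = 0.66, p = 0.0149) in the peptide study, 0.68 without the 2 farthest hearts, and r = 0.26 (permutation p = 0.355; rho = 0.25, p = 0.371) in the antibody study, 0.27 without them.

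*Col1a1* and *Col4a1*, of different molecules, gave r = 0.28 (permutation p = 0.361, and rho = 0.43, p = 0.141) in the peptide study, and 0.051 without the 2 farthest hearts. With CPM scaled by total counts, the 2 genes gave r = 0.66, which passed the threshold (permutation p = 0.0158, adjusted 0.0169). With the antibodies, they gave r = 0.63 (permutation p = 0.0137, adjusted 0.0169; rho = 0.53, p = 0.0463), and 0.56 without the 2 farthest. The other head-to-head type IV pairs were added after their values had been seen, with adjustment over 20 tests. *Col4a5* and *Col4a6* gave r = 0.90 (permutation p = 0.00017, adjusted 0.00049; rho = 0.90, p = 0.00012) in the peptide study, 0.69 without Ab42 replicate 5 and ScrAb42 replicate 6, and r = 0.27 (permutation p = 0.272; rho = 0.31, p = 0.254) in the antibody study, 0.35 without its 2 farthest hearts. *Col4a4* and *Col4a3* gave r = 0.62 (permutation p = 0.00480, adjusted 0.008; rho = 0.57, p = 0.0265) and r = 0.48 (permutation p = 0.104; rho = 0.27, p = 0.322), with 0.60 and 0.26 without the 2 farthest hearts. All these values share a library and its scaling within each heart.

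**Figure D5:**
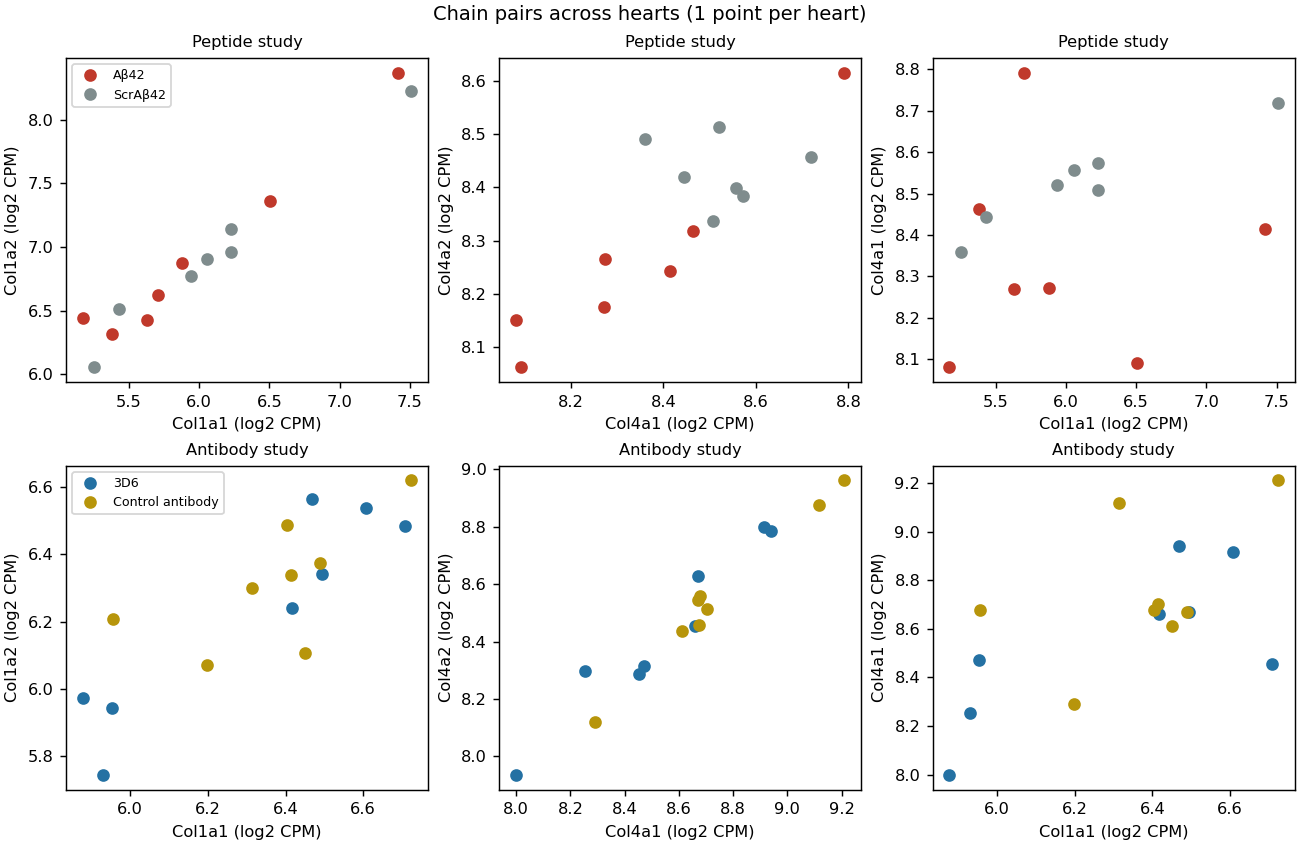
Log2 CPM of chain pairs across hearts, 1 point per heart, coloured by group, for *Col1a1* with *Col1a2*, *Col4a1* with *Col4a2* and *Col1a1* with *Col4a1* in each study. The *Col1a1* and *Col1a2* points follow a line in the peptide study (r = 0.98), whereas those of *Col1a1* and *Col4a1* scatter (r = 0.28). With CPM scaled by total counts, not plotted, the latter pair gave r = 0.66.

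The antibody table lists transcripts, and 36 transcripts of the 25 members passed the minimum of 10 counts. None was called by edgeR, against 0 of 20857 transcripts (0%) in all, and 0 of the 36 had an unadjusted p under 0.05 against 2.4% of all transcripts. DESeq2 called 9 transcripts in all, of which 0 belonged to a member. Log2 fold changes lay between -0.81 and 0.77, and 31 of 36 were below 0. At the gene level 52.6% of all genes lay below 0, and the share among all transcripts is not given here. The smallest unadjusted p, 0.0737, was that of *Col6a2*-201, at 59.6 ± 10.1 CPM with 3D6 and 69.6 ± 11.3 CPM with Control antibody (SD, n = 8 each), a log2 fold change of -0.22 (SE 0.12). *Col18a1* was carried mainly by its transcript 202, at 9.40 ± 2.55 CPM with 3D6 and 11.3 ± 3.11 CPM with Control antibody, rather than 201, at 1.66 ± 1.10 and 1.73 ± 0.759 CPM.

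The genes that fold, process, bind and break down collagen were also without a call in either study, both in edgeR without covariates and with DESeq2, limma-voom or the atrial, fibroblast or mitochondrial covariate. Of 21 genes of folding and modification tested, 12 lay above and 9 below 0 with Ab42 (median log2 fold change 0.011), and 6 above and 15 below with 3D6 (median -0.059). The smallest p values were those of the lysyl hydroxylase *Plod1* (log2 fold change -0.16, adjusted p = 0.762) and the prolyl isomerase *Ppib* (0.15, adjusted p = 0.775) with Ab42, and of the prolyl hydroxylase family members *P3h3* (-0.33) and *P3h2* (-0.39) with 3D6. Every partner gene named for 3D6 had an adjusted p of 0.946. Of 13 processing and crosslinking genes, 8 lay above 0 with Ab42 (median 0.034) and 4 with 3D6 (median -0.069). There the crosslinking enzyme *Lox* had a log2 fold change of 0.49 (adjusted p = 0.775) and the transglutaminase *Tgm2* 0.097 (adjusted p = 0.866) with Ab42, and *Pcolce*, an enhancer of procollagen C-proteinase, had -0.15 and the procollagen peptidase *Adamts14* -0.25 with 3D6. Collagen receptors lay above 0 for 7 of 10 genes with Ab42 (median 0.051) and 3 of 8 with 3D6 (median -0.070). Their smallest p values were those of *Itgb1* (log2 fold change 0.066, adjusted p = 0.920) and *Adgrg6* (0.30, adjusted p = 0.921) with Ab42, and *Itga1* (-0.14) and *Cspg4* (-0.11) with 3D6.

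Among the fibril-binding proteoglycans and glycoproteins, 6 of 14 lay above 0 with Ab42 (median -0.017) and 5 of 12 with 3D6 (median -0.13). *Podn*, which encodes podocan, was at 169 ± 191 CPM with Ab42 and 48.1 ± 49.7 CPM with ScrAb42 (SD, n = 7 each), a log2 fold change of 1.81 (edgeR adjusted p = 0.708). *Tnxb*, a tenascin, had a log2 fold change of -0.17 (adjusted p = 0.891) with Ab42, and the proteoglycans *Bgn* and *Ogn* had -0.20 and 0.13 with 3D6. In the TGF-beta list, which holds the main activators of collagen gene transcription, 13 of 18 lay above 0 with Ab42 (median 0.043) and 10 of 18 with 3D6 (median 0.020). *Smad2* was at 16.6 ± 1.82 CPM with Ab42 and 14.0 ± 1.21 CPM with ScrAb42 (log2 fold change 0.25, adjusted p = 0.693), and *Smad4* at 52.0 ± 3.53 and 58.3 ± 4.27 CPM (-0.16, adjusted p = 0.701). With 3D6, *Smad3* had a log2 fold change of 0.22 and the latent TGF-beta binding protein gene *Ltbp4* one of -0.17. Collagenases lay above 0 for 3 of 4 genes with Ab42 (median 0.047) and 1 of 4 with 3D6 (median -0.094), where *Mmp14* had log2 fold changes of 0.092 and -0.18, and *Mmp9* of 0.29 and 0.59. Several of these genes stand in more than 1 list.

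Of the other cell type markers, the fibroblast list lay above 0 for 6 of 10 genes with Ab42 (median log2 fold change 0.016). Mural markers lay above 0 for 6 of 8 genes with Ab42 (median 0.11) and 1 of 8 with 3D6 (median -0.14), and the highest mural sum, 2467 CPM, was in Ab42 replicate 5. Adipocyte markers lay above 0 for 4 of 4 genes with Ab42 (median 2.49), with a sum of 521 CPM in Ab42 replicate 5 against a group median of 4.64 CPM, and none was tested in the antibody study. The adipocyte marker *Ucp1* was called for Ab42 by DESeq2 (log2 fold change 9.59, adjusted p = 0.0155). Mesothelial markers lay above 0 for 6 of 6 with Ab42 (median 0.84) and 0 of 2 with 3D6 (median -0.56), and valve or cartilage-like markers for 2 of 5 (median -0.64) and 0 of 3 (median -0.39). Blood markers lay above 0 for 0 of 5 in both comparisons (medians -1.37 and -0.087), macrophage markers for 1 of 6 in both (medians -0.098 and -0.15), and cardiomyocyte markers for 2 of 7 in both (medians -0.066 and -0.034). Schwann markers lay above 0 for 2 of 3 and 0 of 3 (medians 0.029 and -0.12), and skeletal muscle markers for 0 of 6 and 1 of 2 (medians -0.63 and 0.0080). The marker *Hapln1* had 0 counts in all hearts given 3D6, and *Chodl* in all given Control antibody. Both belong to the valve or cartilage-like list, of which 3 of 8 genes were tested in the antibody study. The median summed level of that list was low, 18.7 CPM with 3D6 and 19.1 CPM with Control antibody. Levels of the 2 genes in the opposite group are not given here.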

How the data were processed

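Left ventricle total RNA was sequenced from stranded libraries of 30 mouse hearts. Per the labels and the study's methods, the authors quantified reads with Salmon on GRCm38 transcripts of GENCODE vM24. For the peptide study they deposited whole-number counts per gene (49671 rows). For the antibody study they deposited estimated counts per transcript (142647 rows), which were here summed to 55263 genes and rounded, with 1123 unlisted transcripts kept as rows of their own. Annotation came from GENCODE vM21 on GRCm38 and matched 99.5% and 99.2% of the identifiers. Whether strand was used in counting was not given in the sources used here. The number of value columns belonging to no sample, and not used, was 1.

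Genes with a mean of 10 counts or more were tested with edgeR 4.0.16 (TMM normalisation, quasi-likelihood, R 4.3.3), with Benjamini-Hochberg adjustment over all genes. CPM per heart used the TMM sizes, and log2 CPM a prior count of 2. Ratios and correlations used permutation tests over hearts. Alternatives were DESeq2 1.42.0, voom of limma 3.58.1, other scaling and filters, covariates (atrial and fibroblast marker scores, mitochondrial share), and leaving out each heart. Tested on simulated data, the edgeR step recovered 79% of genes changed by a log2 fold of 1 for the peptide comparison (6 false calls) and 86% for the antibody comparison (10 false calls). The 200 changed genes were drawn at random from all genes that met the minimum, so these shares are not rates for the collagen chain genes. In the peptide study, standard errors of the members ran from 0.081 for *Col4a2* to 0.88 for *Col4a6*, with 0.38 for *Col1a1*. Smaller changes were not simulated.

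Members described in full were the 6 with the highest mean CPM per kilobase over both studies and the chains of each ratio. To these were added the 3 higher and 3 lower with the smallest p in each study. Of each partner list (folding, processing, receptors, proteoglycans, TGF-beta, collagenases) the 2 genes with the smallest p per study are named. For marker lists (fibroblast, endothelial, mural, cardiomyocyte, atrial, mesothelial, blood, adipocyte, valve, Schwann, macrophage, skeletal muscle) the rule named 2 genes as well, and counts, medians and summed levels are given instead. The members and lists were chosen with earlier results of these data known. Each heart came from a separate mouse.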

Additional observations from a re-analysis of the deposited data

Results flagged for a closer look

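Within groups of 7 or 8 hearts, a Dixon test of the highest and lowest heart at the 95% level marked 19 values over 56 groups of a named gene, where chance marks about 1 group in 20. Of these, 9 belonged to Ab42 replicate 5. It had *Col1a1* at 171 CPM, *Col1a2* at 329.7 CPM, *Col3a1* at 284 CPM, *Col4a5* at 148 CPM, *Col4a6* at 70.5 CPM, *Col6a1* at 119 CPM, *Col6a2* at 113 CPM, *Col14a1* at 66.8 CPM and *Col18a1* at 174 CPM, each far above the other 6 hearts.

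A further 7 belonged to ScrAb42 replicate 6, which had *Col1a1* at 182 CPM, *Col1a2* at 298 CPM, *Col3a1* at 290.4 CPM, *Col4a6* at 16.1 CPM, *Col6a2* at 111 CPM, *Col14a1* at 44.9 CPM and *Col16a1* at 27.6 CPM. Control antibody replicate 2 stood out for *Col4a6* at 4.04 CPM and *Col23a1* at 5.53 CPM, and Ab42 replicate 2 for *Col4a2* at 391.9 CPM. Ab42 replicate 5, ScrAb42 replicate 6 and Control antibody replicate 2 had the highest summed atrial markers of their groups (8417, 3665 and 2776 CPM), and the part of those markers in the collagen values was not tested.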

How the results depend on the processing

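No paired analysis was possible because the mouse numbers in the labels are not shared between groups, apart from 1 check of the antibody study chosen after seeing the data. There the mouse numbers could be set in 8 pairs of neighbours, each with 1 heart given 3D6 and 1 given Control antibody. Some other consecutive numbers fell in the same group, and no source used here says that the neighbours are pairs. Deviations from the group means correlated within these 8 pairs at -0.21 to 0.41 (median 0.25), above 0.1 in 6. For each heart given 3D6, the median correlation with the other Control antibody hearts lay between -0.18 and 0.049. Of the 8 hearts given 3D6, 2 correlated best with their own neighbour. With the pairs as a replicate block, 0 genes were called and 945 had an unadjusted p under 0.05 against 447 without it. The number of collagen chain genes below 0 was 21 with and without the block (median log2 fold change -0.12 with it), and 0 were called. The number of genes called for Ab42 was 12 with DESeq2, 76 with the fibroblast covariate and 0 to 3 on leaving out each heart (3 without Ab42 replicate 2). With the fibroblast covariate 1 collagen chain gene, *Col4a6*, was called (log2 fold change 1.86, adjusted p = 0.0349). DESeq2 called 9 transcripts for 3D6. Collagen chain genes below 0 with Ab42 numbered 11 (without ScrAb42 replicate 6) to 23 (without Ab42 replicate 5) on leaving out each heart and 16 to 27 under the other settings, with medians from -0.31 to 0.15 and from -0.51 to -0.076. The causes were not tested.

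For Ab42, the atrial covariate turned *Col14a1* to -0.75, *Col18a1* to -0.18, *Col1a2* to -0.59, *Col4a5* to -0.15 and *Col4a6* to -0.13. *Col1a2* also turned to -0.028 with the fibroblast covariate, -0.045 without the hearts that stood apart, -0.034 with limma-voom and -0.022 with the mitochondrial covariate. For 3D6, *Col14a1* turned to -0.12 with the atrial covariate and -0.11 without the hearts that stood apart. The fibroblast covariate turned *Col1a1* to 0.046, *Col1a2* to 0.042 and *Col3a1* to 0.054. *Col4a6* turned to -0.11 with the atrial covariate, -0.13 without the hearts that stood apart, -0.00074 with protein-coding transcripts and -0.050 with total counts.

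Leaving out each heart in turn, Ab42 values ran from -0.13 to 0.89 for *Col14a1*, -0.31 to 0.16 for *Col16a1*, -0.50 to 0.26 for *Col1a1*, -0.37 to 0.34 for *Col1a2*, -0.52 to 0.16 for *Col3a1*, -0.046 to 0.22 for *Col4a5*, -0.26 to 0.028 for *Col6a1* and -0.38 to 0.059 for *Col6a2*. For 3D6 they ran from -0.078 to 0.20 for *Col14a1*, -0.099 to 0.014 for *Col1a1*, -0.11 to -0.0057 for *Col1a2* and -0.14 to 0.0078 for *Col3a1*. The correlation of *Col1a1* with *Col4a1* in the peptide study was 0.66 with total counts (permutation test, adjusted p = 0.0169). That of *Col4a1* with *Col4a2* was 0.48 without the 2 farthest hearts (permutation test, adjusted p = 0.158).
The same ran from -0.020 to 0.13 for *Col4a5* and from -0.12 to 0.31 for *Col4a6* with 3D6. Log2 ratios ran from -0.056 to 0.0092 for *Col4a1*/*Col4a2* with Ab42, and from -0.021 to 0.064 for *Col1a1*/*Col1a2* and -0.010 to 0.068 for *Col1a1*/*Col3a1* with 3D6.
Counting depth limits the rarest members most, such as *Col7a1* with a mean of 13.2 counts per heart.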
